A study of Rattus norvegicus with 36 samples.

Results

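The let-7 family was followed through 36 small RNA libraries of rat serum, nucleus accumbens (NAc) and prefrontal cortex (PFC). Its members were chosen by name, as 10 of the 861 miRNA names in the count table: rno-let-7a-5p, rno-let-7b-5p, rno-let-7c-5p, rno-let-7d-5p, rno-let-7e-5p, rno-let-7f-5p, rno-let-7g-5p, rno-let-7i-5p, rno-miR-98-5p and rno-miR-3596d. Of these, 9 carried the let-7 seed, and the last, miR-3596d, was a name for the opposite strand of a let-7f gene, described apart. All 10 passed the filter on low counts in every comparison.

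The rats were adult male Sprague Dawley animals, 8 weeks old on arrival, and both treatments included a jugular catheter. Heroin rats took heroin intravenously at 0.075 mg/kg per infusion and saline rats took saline, in 10 daily sessions (6 h a day for heroin), and all were killed within 60 min of the last one. The groups were serum heroin, serum saline, NAc heroin, NAc saline, PFC heroin and PFC saline, with 6 libraries each. Brain RNA was total RNA of dissected tissue and serum RNA came from clotted trunk blood by a kit for exosomal RNA, so that tissue and extraction method cannot be told apart.

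let-7 miRNAs are among the most conserved animal miRNAs. They were found in the worm Caenorhabditis elegans as timers of development, rise as mammalian cells differentiate, and repress mRNAs such as those of Lin28, Hmga2, Ras and Myc. Lin28 in turn binds let-7 precursors and blocks their maturation. In the adult brain mature let-7 is abundant in neurons and glia, and let-7 is also a regular component of serum and of extracellular vesicles.

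The sequences below are shown because the members differ by so few bases, which bears on every value that follows. Mature sequences come from RefSeq (GRCr8), 5′ to 3′, with the seed (bases 2 to 8) in capitals. Substitutions are counted from 1 at the 5′ end against let-7a-5p.
let-7a-5p: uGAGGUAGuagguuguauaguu
let-7b-5p: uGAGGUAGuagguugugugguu
let-7c-5p: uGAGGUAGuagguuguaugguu
let-7d-5p: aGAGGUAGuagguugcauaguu
let-7e-5p: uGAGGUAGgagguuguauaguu
let-7f-5p: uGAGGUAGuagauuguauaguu
let-7g-5p: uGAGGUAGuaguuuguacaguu
let-7i-5p: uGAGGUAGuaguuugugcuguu
miR-98-5p: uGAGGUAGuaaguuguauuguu
miR-3596d: cuauacaaucuacuaccuca

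The last sequence is printed without capitals because it lacks this seed. Every one of the other 9 had the seed GAGGUAG, and they were the only names with it among 693 mature rat names of the RefSeq table. In 14 of 22 positions all 9 were identical. The differences from let-7a were A19G in let-7c, A17G and A19G in let-7b, U9G in let-7e, G12A in let-7f, U1A and U16C in let-7d, G11A and A19U in miR-98, G12U and U18C in let-7g, and G12U, A17G, U18C and A19U in let-7i. Of the 36 pairs of members, 4 differed by a single base and the most distant pair by 6. How reads that match several members were assigned is not given in the sources used here, and a read that ends before position 19 cannot tell let-7a from let-7c.

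The 9 miRNAs had 12 copies in the RefSeq table, most of them in clusters (all positions GRCr8). let-7a (chr17:16320145-16320166, plus strand), let-7f (chr17:16320508-16320529) and let-7d (chr17:16322273-16322294) lay on chromosome 17 with gaps of 342 and 1744 bases. let-7e (chr1:67350243-67350264, plus strand) lay 152 bases after miR-99b-5p and 425 bases before miR-125a-5p. On chromosome 7, let-7c (chr7:118683636-118683657) preceded let-7b (chr7:118684044-118684065) by 387 bases, and let-7i (chr7:60527935-60527956, minus strand) stood alone. Second copies of let-7f (chrX:24460052-24460073), let-7a (chr8:50805219-50805240) and let-7c (chr11:29688127-29688148) lay near miR-98 (chrX:24460663-24460684), miR-100 and miR-125b. let-7g (chr8:115701026-115701047) had no neighbour among the names considered. A mature sequence shared by 2 copies gives 1 count, so its copies cannot be told apart.

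Libraries held 0.157 to 2.78 M counts (M, 1e+06) in serum, 5.89 to 24.8 M in the NAc and 3.42 to 20.8 M in the PFC. Levels are CPM, counts per 1e+06 counts of the library's table, and in the shallowest serum library 1 count stood for 6.35 CPM. The smallest serum count of a member was 12, for let-7e. Neuronal marker miRNAs (miR-9a, miR-124, miR-128, miR-129, miR-127) summed to a mean of 22045 to 23352 CPM in serum groups, against 238608 to 321639 CPM in brain groups, and red cell markers (miR-451, miR-486, miR-144, miR-16) to 60539 to 62128 against 247 to 374 CPM. Striated muscle markers summed to 48097 to 55237 CPM in serum groups, against 34.2 to 128 CPM in brain groups, and oligodendrocyte markers (miR-219a, miR-338) to 23.9 to 27.6 against 1451 to 2199 CPM. Liver markers (miR-122, miR-192, miR-194) summed to 6436 to 8891 CPM in serum groups, against 544 to 704 CPM in brain groups, and platelet and leukocyte markers (miR-223, miR-142, miR-150) to 6914 to 8336 against 269 to 340.4 CPM. No list had a marker at 0 in any group. The part of these sources in the differences between serum and brain was not tested. From earlier results of these data, PFC saline replicates 8 and 12 and serum saline replicates 10, 11 and 12 were known to stand apart from their groups, and results that rest on them are given with and without them.

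As a share of all counts in the table, the 9 members took 20.1% ± 4.81 in serum heroin libraries, 24.6% ± 8.18 in serum saline, 14.3% ± 1.03 in NAc heroin, 13.1% ± 1.46 in NAc saline, 14.3% ± 2.41 in PFC heroin and 13.3% ± 3.86 in PFC saline (mean ± SD, n = 6 each). The family was thus a large part of every library, except PFC saline replicate 8 at 5.53%. Whether serum or brain held more of it depended on the denominator. TMM weighs libraries by the bulk of their names. Set against the TMM-scaled library size, the family's counts give a scaled level and not a share of the library's counts. This level was 11.5% and 14.3% in serum heroin and saline, against 20.0% and 15.5% in the NAc and 20.2% and 18.1% in the PFC. The mix of members inside the family does not depend on the denominator, and it differed between serum and brain.

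**Figure D1:**
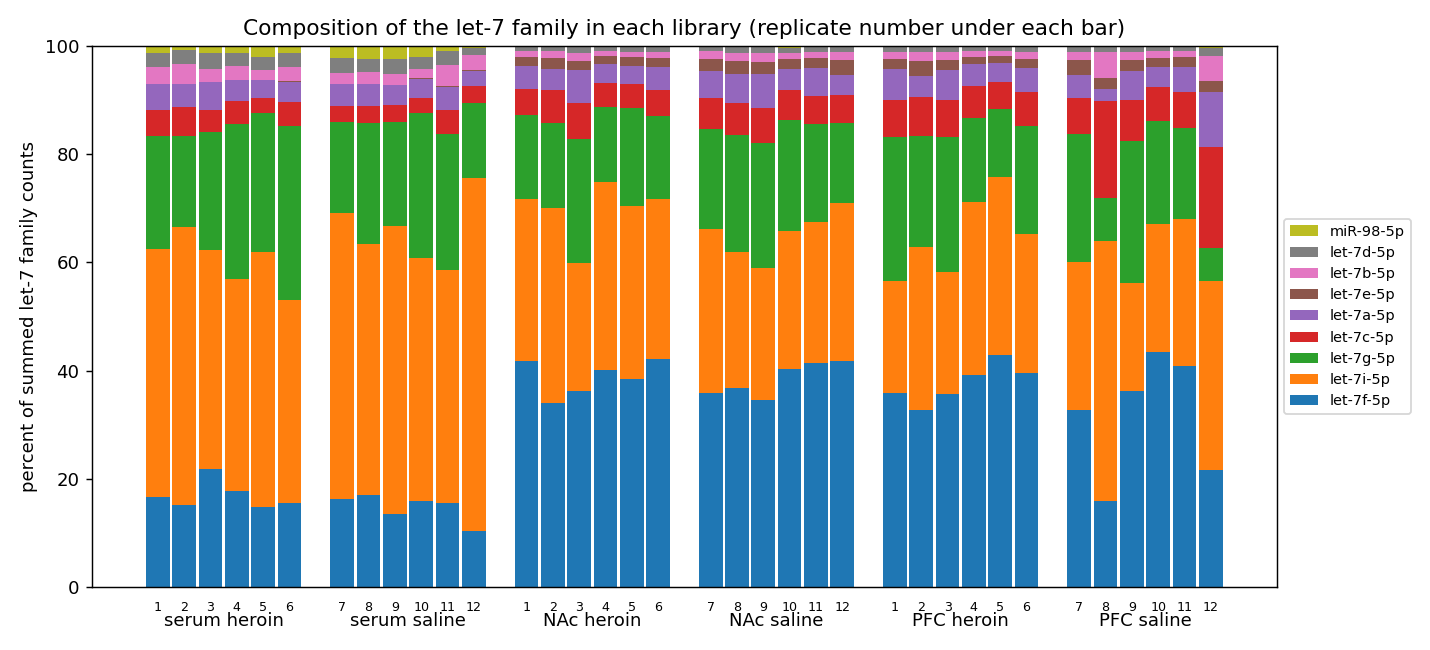
Each bar is 1 library and shows the percent of its summed let-7 counts held by each of the 9 members. In all 12 serum libraries let-7i-5p is the largest block (37.6% to 65.2%), while let-7f-5p holds 34.1% to 42.0% in the NAc.

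In serum, let-7i-5p was the most abundant member, let-7g-5p the second, let-7f-5p the third and let-7e-5p the last in 12 of 12 libraries. let-7i took 47.3% ± 7.60 of the family's counts in serum, 28.9% ± 4.06 in the NAc and 28.8% ± 7.73 in the PFC (SD, n = 12 each). let-7f took 15.8% ± 2.69 in serum, against 38.6% ± 2.97 in the NAc and 34.7% ± 8.33 in the PFC. In brain let-7f led in 11 of 12 NAc and 10 of 12 PFC libraries, and miR-98-5p was last in all 24. The serum and NAc ranges did not overlap for let-7i or let-7f; the serum and PFC ranges did, through single PFC libraries such as saline replicate 8, where let-7i held 48.0% and let-7f 15.9%.

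**Figure D2:**
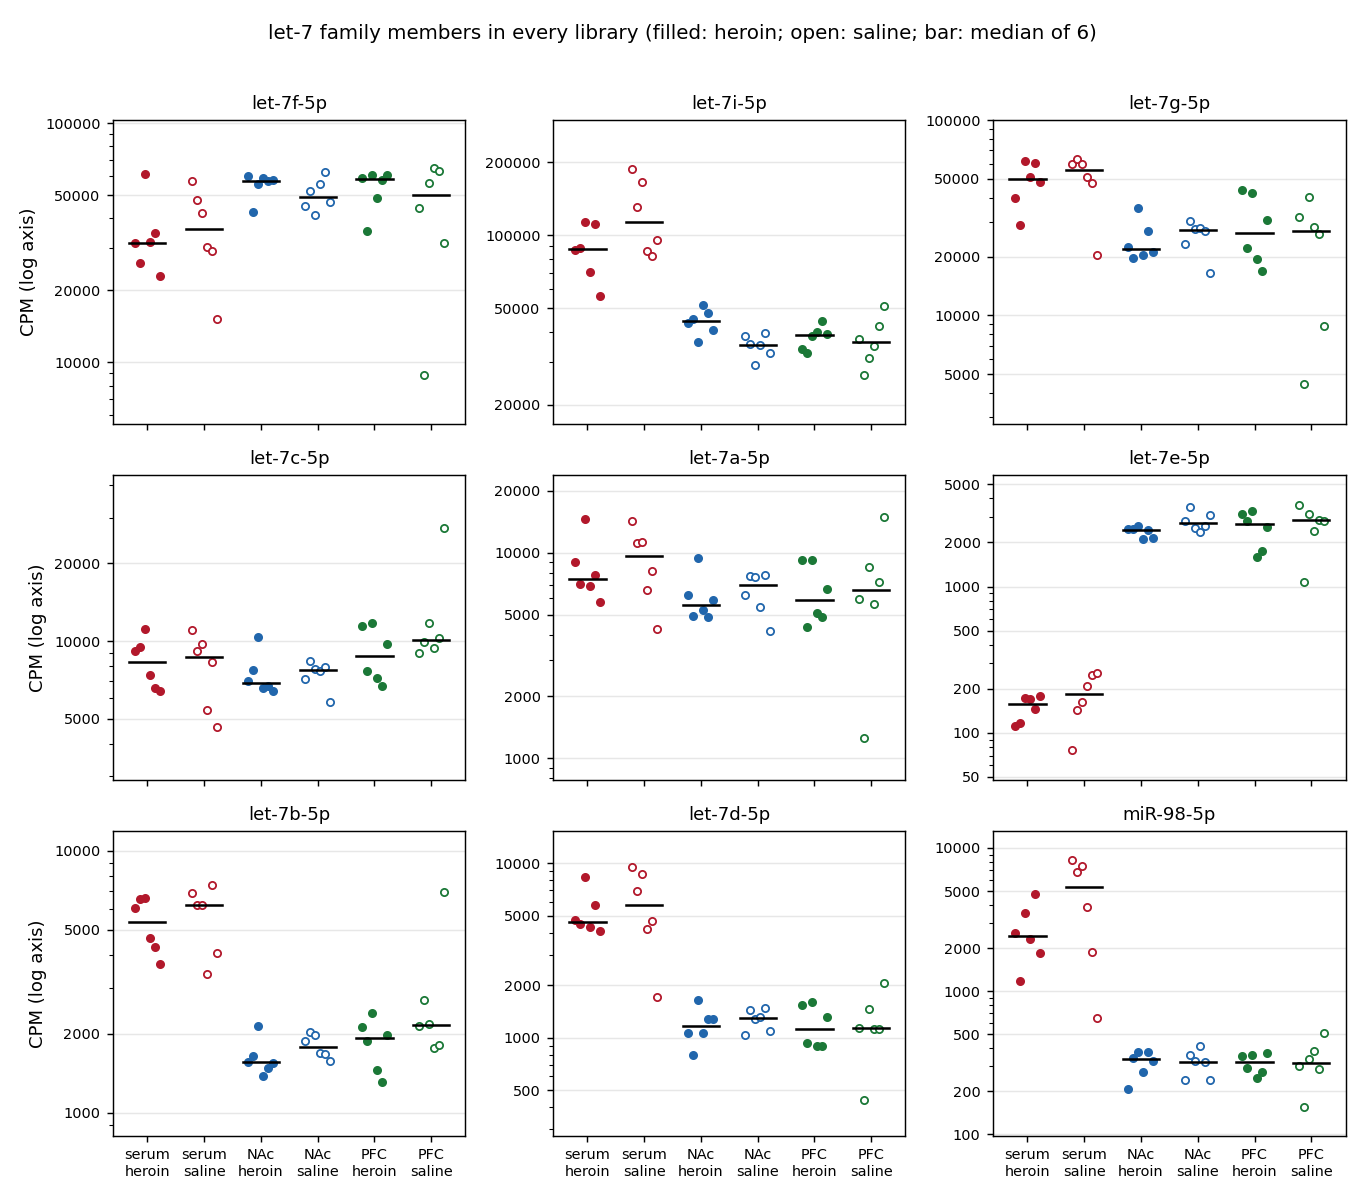
Each point is 1 library (filled, heroin; open, saline), each bar a group median of 6, on a log axis of CPM, with 1 panel per member. let-7e-5p lies between 76.2 and 257 CPM in serum and between 1074 and 3597 CPM in brain, while miR-98-5p and let-7d-5p are higher in serum.

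With TMM scaling let-7e-5p, the member with U9G just behind the seed, showed the widest gap between serum and brain. Its lowest, median and highest levels were 112, 158 and 179 CPM in serum heroin libraries and 76.2, 186 and 257 CPM in serum saline libraries. They were 2106, 2435 and 2595 CPM in NAc heroin, 2346, 2699 and 3484 CPM in NAc saline, 1598.5, 2683 and 3261 CPM in PFC heroin and 1074, 2843 and 3597 CPM in PFC saline. Every serum library was below every brain library. In edgeR's quasi-likelihood test over all names, let-7e was lower in serum than in the NAc by a log2 fold change of -5.16 ± 0.25 (SE, adjusted p = 6.37e-13) in heroin rats and -4.25 ± 0.35 (adjusted p = 1.29e-08) in saline rats, which is 35.8-fold and 19.1-fold lower. With the library total as scaling these values were -3.99 and -3.93, so the gap between heroin and saline rats depended on the scaling. Against the PFC the values with TMM were -4.72 ± 0.31 (adjusted p = 3.63e-11, edgeR) and -4.10 ± 0.51 (adjusted p = 3.32e-07). With the library total, let-7e and miR-98-5p were about equally far from 0 in saline rats. They were at -3.93 and 3.93 over the NAc and at -3.85 and 3.87 over the PFC. Both brain regions were set against the same serum libraries, so these are not independent, whereas heroin and saline rats were separate libraries.

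The names beside let-7e on chromosome 1, which are processed from the same cluster, were low in serum too. miR-99b-5p averaged 269.9 ± 91.3 and 307 ± 135 CPM in serum heroin and saline libraries, against 7991 ± 1183 and 8088 ± 1684 CPM in the NAc and 7763 ± 2218 and 8175 ± 4087 CPM in the PFC (SD, n = 6 each). Its log2 fold changes in serum were -6.09 and -5.07 over the NAc and -5.60 and -4.89 over the PFC, in heroin and saline rats, and those of miR-125a-5p -4.52 and -4.28, and -3.95 and -3.77. Of the partners of other let-7 genes, miR-125b-5p (-5.08 and -4.47, -4.82 and -4.58) and miR-100-5p (-3.32 and -3.15, -3.002 and -2.99) passed in all 4 comparisons as well. miR-99a-5p, which is clustered with let-7c, differed: its serum value was 0.08 and 1.22 over the NAc and 0.28 and 0.42 over the PFC, and passed in saline rats over the NAc alone, where it was above 0 with each of 3 scalings and called with 2. The other 3 values did not pass with TMM and changed sign with the scaling. With the library total those of heroin rats passed, at 1.24 over the NAc and 0.96 over the PFC.

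Counts set against each other within a library need no scaling. For 1 count of miR-99b there was 0.586 ± 0.133 of let-7e in serum heroin and 0.609 ± 0.108 in serum saline libraries, against 0.303 ± 0.0627 and 0.358 ± 0.0808 in the NAc and 0.354 ± 0.147 and 0.352 ± 0.112 in the PFC (mean ± SD, n = 6 each). For 1 count of let-7a there was 0.0192 ± 0.00755 and 0.0259 ± 0.0199 of let-7e in serum, against 0.405 ± 0.0839 and 0.457 ± 0.153 in the NAc and 0.398 ± 0.125 and 0.474 ± 0.230 in the PFC. So let-7e and its cluster neighbour were both low in serum, while let-7e and let-7a moved far apart. Ratios of counts carry each miRNA's own ligation and amplification bias, so only their change between tissues is read.

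**Figure D3:**
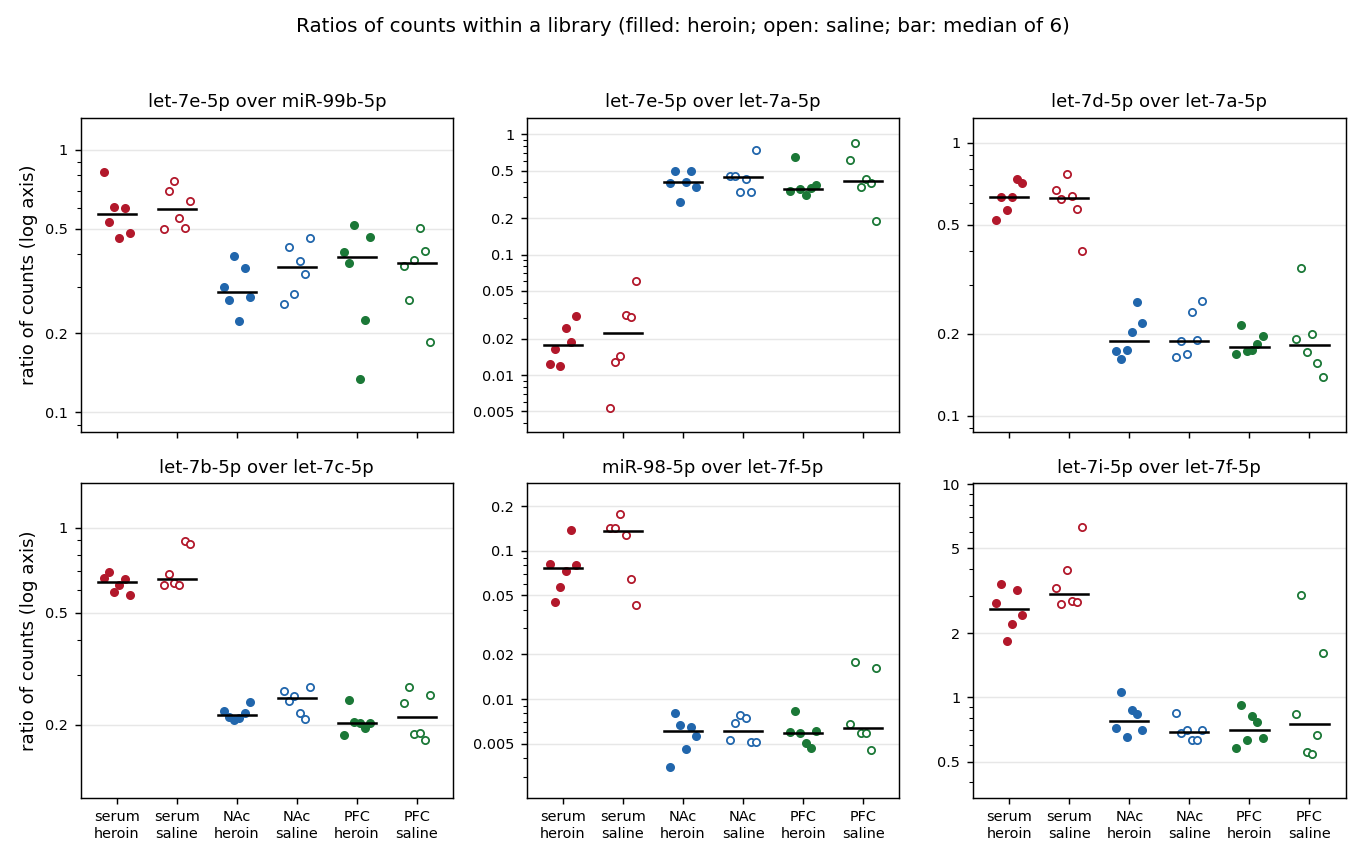
Each point is the ratio of 2 counts in 1 library (filled, heroin; open, saline; bar, median of 6) on a log axis, for 6 pairs of names. let-7e over let-7a separates serum (0.00534 to 0.0607) from brain (0.190 to 0.855), while let-7e over miR-99b spans 0.134 to 0.827 in all tissues together.

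miR-98-5p, whose gene lies 590 bases from a let-7f gene on the X chromosome, went the other way. Its lowest, median and highest levels were 1178, 2428 and 4746 CPM in serum heroin libraries and 653, 5334 and 8214 CPM in serum saline libraries. They were 209, 334 and 374 CPM in NAc heroin, 239, 322 and 415 CPM in NAc saline, 247, 323 and 372 CPM in PFC heroin and 157, 317 and 510.3 CPM in PFC saline. Every serum library was above every brain library. The log2 fold change of serum over the NAc was 1.92 ± 0.29 (adjusted p = 4.61e-06, edgeR) in heroin rats and 3.61 ± 0.51 (adjusted p = 5.05e-06) in saline rats, and over the PFC 2.40 ± 0.33 (adjusted p = 9.53e-07) and 3.63 ± 0.58 (adjusted p = 6.31e-06). These were 3.09 and 3.93, and 3.09 and 3.87, with the library total. Against let-7f it stood at 0.0788 ± 0.0317 and 0.116 ± 0.0516 counts per count in serum heroin and saline libraries, and at 0.00583 to 0.00953 on average in the 4 brain groups.

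let-7d-5p, with its altered first base, was higher in serum as well. Its lowest, median and highest levels were 4098, 4599.5 and 8313 CPM in serum heroin and 1704, 5798 and 9592 CPM in serum saline libraries. In brain they were 796, 1171 and 1645 CPM in NAc heroin, 1029.9, 1297 and 1473 CPM in NAc saline, 894, 1126 and 1596 CPM in PFC heroin and 437, 1129.9 and 2072 CPM in PFC saline. All serum heroin libraries lay above all brain libraries, while in saline rats serum and PFC overlapped. The log2 fold changes in serum were 1.00 ± 0.27 (adjusted p = 0.00208, edgeR) and 1.90 ± 0.36 (adjusted p = 0.000126) over the NAc, in heroin and saline rats, and 1.47 ± 0.28 (adjusted p = 6.94e-05) and 2.05 ± 0.49 (adjusted p = 0.000584) over the PFC. With the library total they were 2.15 and 2.23 over the NAc and 2.14 and 2.29 over the PFC, nearly alike in heroin and saline rats. Its cluster mates on chromosome 17 did not move with it: for 1 count of let-7a there was 0.634 ± 0.0824 and 0.613 ± 0.123 of let-7d in serum heroin and saline libraries, against 0.198 ± 0.0373 and 0.202 ± 0.0405 in the NAc and 0.185 ± 0.0180 and 0.201 ± 0.0757 in the PFC. let-7a and let-7f also have copies elsewhere, whose share in these counts was not tested.

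The same held between let-7b and let-7c, which are neighbours on chromosome 7. let-7c also has a copy on chromosome 11, whose share in its counts was not tested. The count ratio of let-7b to let-7c was 0.635 ± 0.0437 in serum heroin and 0.723 ± 0.128 in serum saline libraries, against 0.220 ± 0.0121 and 0.244 ± 0.0247 in the NAc and 0.206 ± 0.0203 and 0.219 ± 0.0410 in the PFC. The lowest serum ratio was 0.579 and the highest brain ratio 0.273. let-7b-5p ranged from 3371 to 7429 CPM in serum, with group medians of 5351 (heroin) and 6203 (saline), and from 1308 to 6948 CPM in brain, with medians of 1561 to 2168. let-7c-5p had medians of 8281 and 8702 CPM in serum heroin and saline and 6873 to 10073 CPM in the brain groups. In CPM, then, the groups' medians of let-7b were farther apart between serum and brain than those of let-7c. With TMM scaling this did not hold throughout: in heroin rats the log2 fold change of serum over the NAc was -0.93 for let-7c and 0.62 for let-7b.

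Across the family, members were called (adjusted p under 0.05, edgeR) in both directions. Of the 9, 7 were called for serum over the NAc in heroin rats (3 higher, 4 lower), where 92.3% of all tested names were called, 32.3% higher and 59.9% lower. In saline rats 7 were called (5 higher, 2 lower), against 90.6% of all names (33.7% higher, 56.8% lower). One of the 5, let-7g (0.63, adjusted p = 0.0491), lost its call in all 12 fits that left out a library and kept it in 2 of 19 alternatives. Over the PFC, 6 were called in heroin rats (3 higher, 3 lower), against 89.3% (34.8% higher, 54.5% lower), and 5 in saline rats (4 higher, 1 lower), against 85.5% (33.7% higher, 51.8% lower). Serum and brain libraries did not overlap in CPM for 5, 5, 5 and 3 members in these comparisons, against 75.4%, 72.6%, 74.2% and 67.3% of all names. With so many names called, the number of members called says nothing particular about the family.

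The median log2 fold change over the 9 members in serum was -0.21 and 0.63 over the NAc, in heroin and saline rats, and 0.06 and 0.73 over the PFC, against -2.18, -1.91, -1.57 and -1.45 over all tested names. The last 4 values move with the scaling, to -2.25, -2.54, -2.13 and -2.25 with RLE factors and to -0.95, -1.58, -0.98 and -1.38 with the library total. The values of the members move as well. let-7g was the member at the median with TMM in all 4 comparisons. Over the NAc, RLE factors and the library total put it at -0.31 to 0.99 in heroin rats and -0.0515 to 0.98 in saline rats. Over the PFC it was at -0.45 to 0.73 and -0.000736 to 1.11. let-7e, let-7d and miR-98 were called in the same direction in all 4 comparisons under every alternative tried. let-7f-5p was lower in serum in all 4 (-1.83 and -0.80 over the NAc, -1.34 and -0.68 over the PFC, in heroin and saline rats) under every alternative, and missed the threshold in saline rats over the PFC (adjusted p = 0.25). let-7b was higher in all 4 (0.62, 1.33, 0.95 and 0.90 in the same order) but its call in saline rats over the PFC was kept by only 4 of 20 alternatives, and leaving out single libraries there gave 0.16 (without PFC saline replicate 10) to 0.84. Its calls over the NAc and PFC in heroin rats were kept by 9 and 14 of 18, and that over the NAc in saline rats by 19 of 19. let-7a, let-7c and let-7g had values that changed sign with the scaling. let-7i showed this most plainly: over the NAc in heroin rats all 6 serum libraries were above all NAc libraries in CPM, yet the TMM-scaled value was -0.12 ± 0.23 (adjusted p = 0.638).

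**Figure D4:**
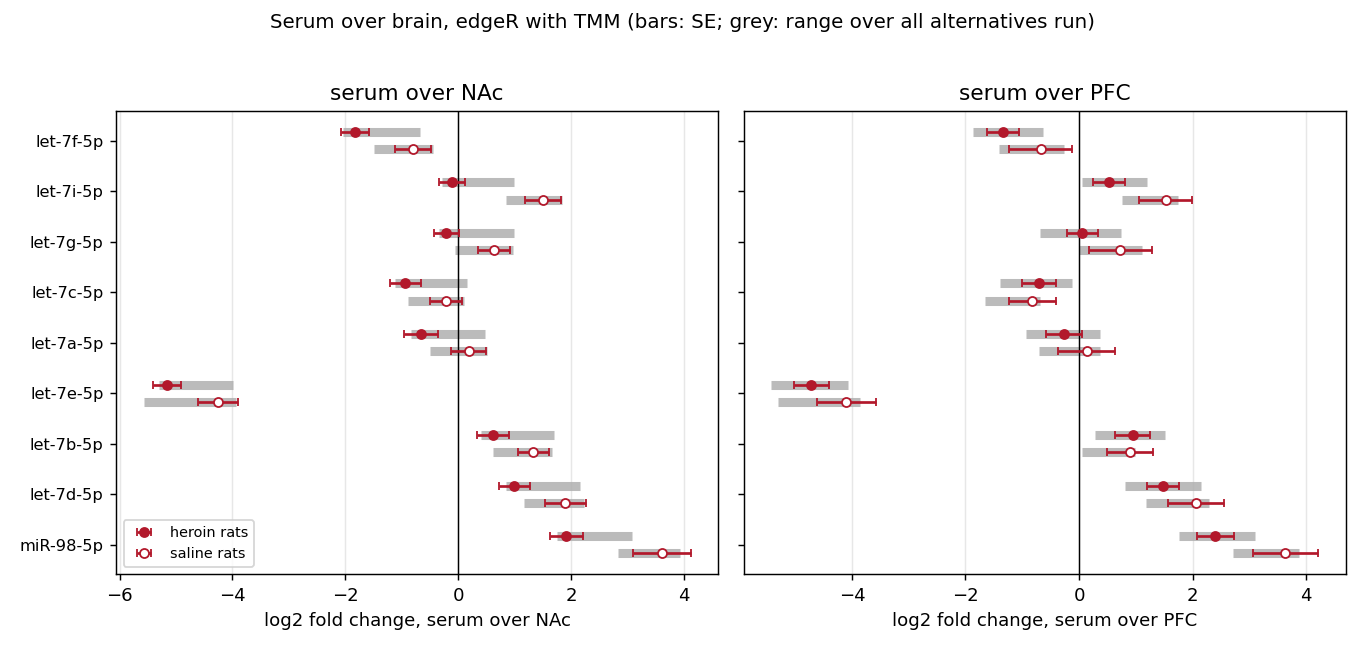
Points are log2 fold changes of serum over each brain region within each treatment, with bars of 1 SE; filled points are heroin rats, open points saline rats, and grey bands span all alternatives run. let-7e-5p stays far below 0 and miR-98-5p and let-7d-5p above 0 throughout, while bands of let-7a, let-7c, let-7g and let-7i cross 0 in at least 1 panel.

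The abundant members behaved as follows within groups. let-7i-5p had lowest, median and highest levels of 56139.8, 87869 and 113162 CPM in serum heroin, 81792, 113308 and 187492 in serum saline, 36279, 44163 and 51347 in NAc heroin, 29046, 35327 and 39343 in NAc saline, 32698, 38823 and 44351 in PFC heroin and 26561, 36117 and 51052 in PFC saline. let-7f-5p had 23056, 31636 and 61377 CPM in serum heroin, 15138, 36194 and 57479 in serum saline, 42618, 57439 and 60378 in NAc heroin, 41334, 49367 and 62365 in NAc saline, 35311, 58472 and 60573 in PFC heroin and 8818, 50227.5 and 64741 in PFC saline. let-7g-5p had medians of 49730.5 and 55340 CPM in serum heroin and saline, 21787 and 27418 in the NAc and 26395 and 27205 in the PFC. In every pair of heroin and saline groups of these 3 members the ranges overlapped. Among all 861 names, ranked by level within a tissue, let-7i, let-7g and let-7f were at places 2, 4 and 5 in serum, and let-7f, let-7i and let-7g at 4, 8 and 11 in the NAc and 4, 8 and 10 in the PFC. let-7a-5p lay far below them, with medians of 7431 and 9649.7 CPM in serum heroin and saline, 5575 and 6944 in the NAc and 5906 and 6573 in the PFC. Next to names of at least 100 CPM, the members varied less in most groups: in NAc heroin libraries their median coefficient of variation was 19.8%, against 27.4% over 176 names, and 8 of 9 members were below that value, while in PFC saline libraries the medians were 48.3% and 49.1%. The names were not matched to the members on level, so a smaller spread particular to the family is not shown.

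Between the brain regions the values of the members were small. Their median log2 fold change of the NAc over the PFC was -0.05 in heroin rats and -0.21 in saline rats, against 0.00477 and -0.09 over all tested names. In saline rats all 9 were negative with TMM, but let-7d, let-7e, let-7f and let-7g were at 0.05 to 0.17 with the library total. No member was called for the NAc over the PFC in heroin rats, where 1.72% of names were called (0.647% higher, 1.08% lower) and likewise 1.72% did not overlap, nor in saline rats, where 7.07% were called (3.64% higher, 3.43% lower). A replicate block raised the calls in heroin rats from 8 to 53 names, again without a member. With the library total as scaling the split over all names was 17 higher and 9 lower in saline rats, against 17 and 16 with TMM, and 4 and 4 in heroin rats, against 3 and 5. In saline rats 1 member, let-7c, did not overlap between the regions, against 6.85% of names: it stood at 5789, 7733 and 8354 CPM in the NAc, against 8961, 10073 and 27305 CPM in the PFC (lowest, median and highest). Its log2 fold change was -0.90 ± 0.29 (adjusted p = 0.0771, edgeR), and it passed without PFC saline replicate 8 (-1.04, adjusted p = 0.0326), without replicates 8 and 12 together, and in DESeq2. The other 16 of 19 alternatives did not call it, and without PFC saline replicate 12, the library at 27305 CPM, it was -0.57. In heroin rats it was -0.27 ± 0.17 (adjusted p = 0.399). let-7b was next in saline rats at -0.78 ± 0.31 (adjusted p = 0.142), and at -0.34 without PFC saline replicate 12.

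The question of the design was what differs after heroin self-administration. No member was called in any tissue by edgeR's quasi-likelihood test, and of all names 0 of 229 in serum, 0 of 480 in the NAc and 0 of 455 in the PFC were called, or 0% in each direction. At an unadjusted p under 0.05 there were 11, 30 and 16 names in serum, NAc and PFC, of which let-7i in the NAc was the only member. DESeq2 called 4, 0 and 0 names, none of them a member. No member had groups that did not overlap, against 0.437% of names (1 of 229) in serum and 0% in the NAc and PFC. In bulk samples, fewer cells of a type and less RNA per cell cannot be told apart, and the same holds for vesicles in serum.

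In serum all 9 members had negative values with TMM, with a median of -0.22 against -0.08 over all tested names. With the library total let-7c was at 0.06 and the median of all tested names at 0.05. The largest was that of miR-98, at -1.02 ± 0.51 (adjusted p = 0.744, edgeR), followed by let-7i at -0.62 ± 0.35 (adjusted p = 0.827) and let-7e at -0.45 ± 0.30 (adjusted p = 0.857). The serum heroin libraries of miR-98 all lay below the saline median, but the saline libraries spanned 653 to 8214 CPM: replicates 7, 8 and 9 had 8214, 6781 and 7476 CPM, and replicates 10, 11 and 12 had 3888, 1885 and 653 CPM. The family's share of these libraries split in the same way, at 35.4%, 28.2% and 31.2% against 19.1%, 18.9% and 14.7%. Summed striated muscle miRNAs (miR-1, miR-133a, miR-206) were at 15608, 35652 and 47773 CPM in replicates 7, 8 and 9 and at 74733, 52719 and 104935 CPM in replicates 10, 11 and 12. Red cell miRNAs split in the opposite direction, at 73049, 87418 and 66173 CPM against 37465, 62890 and 45773 CPM. The neuron, liver, oligodendrocyte, and platelet and leukocyte lists overlapped between these replicates. The part of these sources in the result was not tested. Without replicates 10, 11 and 12 miR-98 was called, at -1.71 with an adjusted p of 0.0189 (edgeR), and over the other alternatives its adjusted p was 0.254 to 0.942. These were the saline libraries lowest in miR-98, so leaving them out favours a lower value after heroin. Only replicates 7, 8 and 9 then stood for saline, and no conclusion is drawn from this call.

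In the NAc, 8 of 9 members had positive values. Their median with TMM was 0.07, against -0.07 over all tested names. With the library total as scaling let-7g, the member at this median, was at -0.07 and the median of all tested names at -0.22. let-7i was the only member with an unadjusted p under 0.05, at 0.48 ± 0.16 (unadjusted p = 0.00993 and adjusted p = 0.686, edgeR), with all 6 heroin libraries above the saline median of 35327 CPM. It kept this sign under all 17 alternatives (0.33 to 0.58), none of which called it. let-7f followed at 0.28 ± 0.18 (adjusted p = 0.686) and let-7e was at -0.10 ± 0.15 (adjusted p = 0.861). With the library total in place of TMM, let-7a, let-7b, let-7d and let-7g were below 0, so that the direction of the low values is not settled.

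In the PFC, 5 of 9 members were positive and 4 negative, with a median of 0.01 against -0.05 over all tested names, and every adjusted p was 0.995. let-7b had the value farthest from 0, at -0.53 ± 0.33, with medians of 1926 CPM after heroin and 2168 CPM after saline, and PFC saline replicate 12 alone stood at 6948 CPM. Without that library it was -0.08. let-7c was at -0.40 ± 0.31, and at -0.06 without the same library. let-7g was at 0.33 ± 0.48 and let-7f at 0.30 ± 0.43. The last pair turned to -0.16 and -0.10 without saline replicates 8 and 12.

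**Figure D5:**
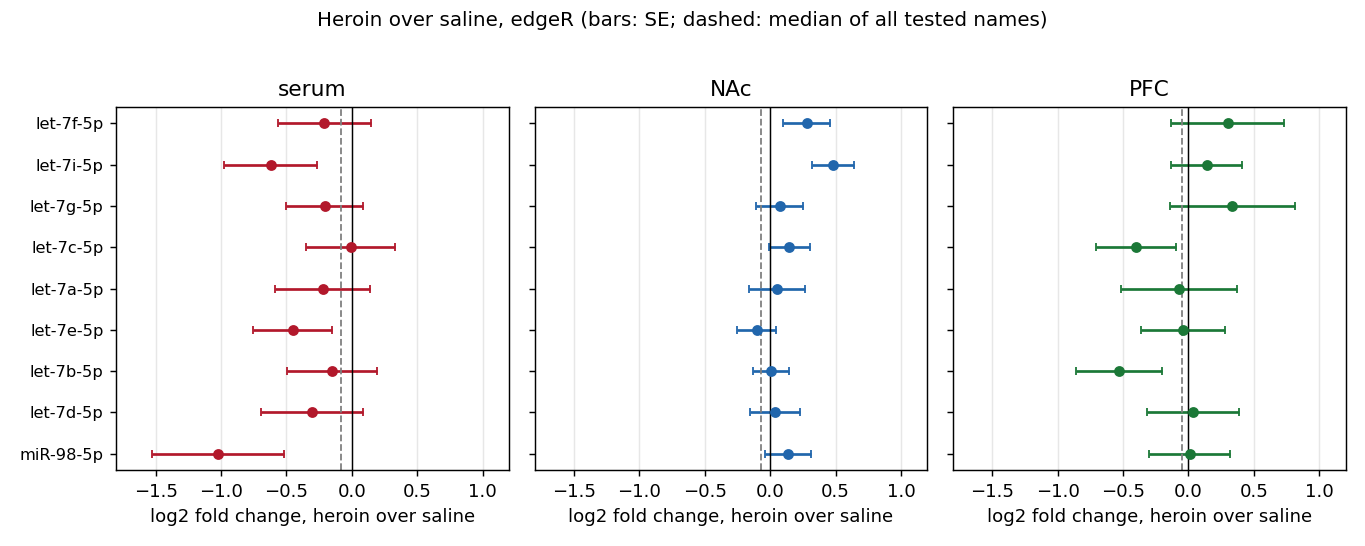
Points are log2 fold changes of heroin over saline in serum, NAc and PFC for each member, with bars of 1 SE and n = 6 per group; the dashed line is the median of all tested names. In serum all 9 lie below 0 (-1.02 to -0.01, let-7c above 0 with the library total as scaling), in the NAc 8 of 9 above it (let-7a, let-7b, let-7d and let-7g below 0 with the library total), and no member passed the test.

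Whether the heroin difference itself differed between tissues was tested as an interaction. No member and no name was called, for the effect in serum minus that in the NAc (0 of 489), in serum minus that in the PFC (0 of 462) or in the NAc minus that in the PFC (0 of 506), while 39, 25 and 19 names had an unadjusted p under 0.05 and DESeq2 called 1, 2 and 0. The 9 members were all negative for serum minus NAc, with a median of -0.20 against 0.10 over all tested names (-0.13 with RLE factors), though let-7b, let-7c and let-7g were above 0 with the library total as scaling. let-7e, the member at this median, was at -0.50 to -0.06 over RLE factors and the library total. let-7i was at -0.996 ± 0.41 (adjusted p = 0.459, edgeR) and miR-98 at -1.03 ± 0.60 (adjusted p = 0.633). Since serum libraries and NAc libraries each enter the separate comparisons too, these values restate them.

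The other arms of the let-7 hairpins were rare. Of 11 in the table, 5 reached a mean of 10 CPM in a group, and the highest mean of the rest was 4.16 CPM. The exception was let-7d-3p, which like its 5p arm was higher in serum. It averaged 1291 ± 337 and 1537 ± 565 CPM in serum heroin and saline libraries, against 209 ± 23.0 and 249.5 ± 33.8 CPM in the NAc and 184 ± 29.6 and 371 ± 433 CPM in the PFC (SD, n = 6 each). Its log2 fold changes in serum were 1.51 ± 0.28 and 2.32 ± 0.31 over the NAc and 2.18 ± 0.31 and 2.11 ± 0.50 over the PFC, called with each of 3 scalings. There were 4.33 ± 1.51 and 4.61 ± 3.18 counts of the 5p arm per count of the 3p arm in serum, 5.66 ± 1.07 and 5.19 ± 1.11 in the NAc and 6.55 ± 1.54 and 5.28 ± 3.06 in the PFC, ranges that overlap.

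let-7e-3p was low in serum like its 5p arm. It had 8 and 10 summed counts over the 6 libraries of serum heroin and saline, against 2035 and 2318 in the NAc and 1679 and 1458 in the PFC. Its mean was 3.09 and 5.20 CPM in serum heroin and saline, against 23.0 and 33.0 CPM in the NAc and 24.6 and 19.9 CPM in the PFC. let-7b-3p was called lower in serum in heroin rats (-3.81 over the NAc, -3.01 over the PFC), from 6 summed serum counts, and with TMM not in saline rats (-0.94 and -1.02). With RLE factors it was called lower in saline rats too (-1.57 and -1.86). Its values were below 0 in all 4 comparisons, while those of its 5p arm were above 0. The 3p values rest on few serum counts (6 in heroin and 18 in saline libraries). Whether the arms differ is therefore not settled. let-7c-1-3p was called lower in serum in all 4 comparisons (-4.11 to -3.65) with each of 3 scalings, from 4 and 3 summed counts in serum heroin and saline, against 614 and 637 in the NAc and 699 and 906 in the PFC. let-7a-1-3p was called lower in 3 of 4 (-1.88 and -1.06 over the NAc in heroin and saline rats, -1.57 over the PFC in heroin rats), and was at -0.63 over the PFC in saline rats (adjusted p = 0.27, edgeR). Its calls over the NAc were lost with the library total as scaling. With RLE factors let-7a-1-3p was called lower over the PFC in saline rats as well (-1.44).

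miR-3596d is the last of the 10 names and does not belong to the family by sequence. Its 20 bases are the reverse complement of bases 1 to 20 of let-7f-5p, and its gene lies on the other strand of the let-7f gene (chr17:16320508-16320527, minus strand). Its counts followed those of let-7f, at 80.6% to 91.7% of them in serum libraries, 96.3% to 97.7% in the NAc and 94.5% to 97.7% in the PFC. The other 3 names of this kind did the same: miR-3596a had 2107847 counts against 2107849 of let-7a and equalled it in 34 of 36 libraries, miR-3596b equalled let-7d in 26 and miR-3596c let-7e in 9. Of 31 pairs of names that nearly repeat each other in the table, 30 had both sequences in RefSeq and 29 of these were complementary over at least 16 bases. Whether strand was used in counting is not given in the sources used here, so reads of such a pair cannot be told apart, and miR-3596d was left out of the sums. Its median was 28175 and 32184 CPM in serum heroin and saline libraries, 55881 and 47863 CPM in the NAc and 56699 and 48676 CPM in the PFC. Its log2 fold changes were close to those of let-7f, such as -0.20 ± 0.36 against -0.21 ± 0.36 for heroin over saline in serum.

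Across libraries the members did not vary as 1 block. After the mean of each group was removed, the strongest link among them over 36 libraries was between let-7b and let-7c (Pearson r of log2 CPM 0.907, and 0.897 in serum, 0.851 in the NAc and 0.931 in the PFC), then between let-7a and let-7d (0.893). let-7e stood apart in serum, with a negative r to all of the other 8 (-0.279 to -0.699 over 12 libraries). For 1 count of let-7a there was 0.00534, 0.0128 and 0.0144 of let-7e in serum saline replicates 7, 8 and 9. In replicates 10, 11 and 12 it was 0.0314, 0.0304 and 0.0607. No r was computed without the latter, so how far the negative r rests on this split was not tested. Of 77 names outside the family with at least 100 CPM, those most like the summed family were miR-148b-3p (0.768), miR-30c-5p (0.715) and miR-30e-3p (0.708). For single members they were miR-30c-5p for let-7g (0.854) and let-7d (0.771), miR-26a-5p for miR-98 (0.794), let-7d-3p for let-7b (0.777), miR-148b-3p for let-7f (0.739), miR-30e-3p for let-7a (0.704), miR-106b-3p for let-7i (0.644), miR-222-3p for let-7c (0.597) and miR-99b-5p for let-7e (0.564). These are descriptions of values that share libraries, depth and a common total, and they carry no test.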

How the data were processed

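Small RNA libraries (inserts of 18 to 40 bases) of serum, NAc and PFC were deposited as 1 table of counts per miRNA name. Raw counts and TPM stand side by side, per the file headers. The authors' TPM equalled the count per 1e+06 of the table's total (largest relative difference 4.93e-15), so the counts were used. The submitters' processing notes name Bowtie and the rn6 build. No source used here states the strand of counting or the handling of reads matching several names. Of 861 names, 706 were annotated and 155 predicted.

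Groups were taken from the sample labels, which call the 6 libraries of a group biological replicates, so p-values measure the spread between libraries. In each tissue heroin replicates run from 1 to 6 and saline replicates from 7 to 12, and no label ties a number to 1 animal. Counts were tested with edgeR 4.0.16 (R 4.3.3), TMM scaling, filterByExpr with a minimum count of 10 and the quasi-likelihood F test, with Benjamini-Hochberg adjustment over all tested names and a threshold of 0.05. Only the groups of a comparison entered its fit, and the SE is the size of the log2 fold change over the square root of F. Alternatives were RLE factors, the library total, no filter, DESeq2 1.42.0, leaving out near-repeated names (pairs of at least 500 counts within 5%), leaving out libraries, and a replicate block. The fits were tested on simulated data. CPM shares and ratios were computed in Python 3.11.15 with numpy 2.4.6 and pandas 2.3.3, and figures with matplotlib 3.10.9. Likeness used log2(CPM + 1).

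Depth was a median of 0.456 M counts in serum, 12.31 M in the NAc and 10.42 M in the PFC, and low serum counts limit let-7e and the 3p arms most. Members were named by the given list, other arms when a group mean reached 10 CPM, 5 cluster partners by name, and the most alike names by r. Members and lists were chosen with earlier results of these data known.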

Additional observations from a re-analysis of the deposited data

Results flagged for a closer look

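Among groups of 6 libraries, 11 of 66 group values of a member or of the family's share had 1 library far from the other 5 by Dixon's criterion, where chance gives about 1 in 20. NAc heroin replicate 3 was highest in let-7a (9422 CPM), let-7b (2149 CPM) and let-7c (10341 CPM). PFC saline replicate 12 was highest in let-7b (6948 CPM) and let-7c (27305 CPM). Serum heroin replicate 3 was highest in let-7f (61377 CPM) and in its opposite-strand name miR-3596d (55940.4 CPM). NAc heroin replicate 2 was lowest in let-7f (42618 CPM) and miR-3596d (41339 CPM). Serum saline replicate 12 was lowest in let-7g (20323 CPM), and PFC saline replicate 8 had the lowest share of family counts (5.53%). The values of let-7f and miR-3596d are not independent.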

How the results depend on the processing

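Of 2548 values of members under the alternatives, 2430 kept their side of the threshold, 63 lost their call, 45 gained one and 10 turned round. Of the 2430, 212 changed sign, where the reported value was smaller than its SE. For serum over the NAc in heroin rats the library total gave let-7a 0.48, let-7c 0.16, let-7g 0.99 and let-7i 0.99; in saline rats let-7g was -0.0515 with RLE and -0.0516 with DESeq2, and let-7a -0.50 with DESeq2. For serum over the PFC, let-7g in saline rats was -0.000736 with RLE and -0.000654 with DESeq2, and in heroin rats -0.70 without PFC heroin replicate 5 (up to 0.26 without others). As a percent of the TMM-scaled library size the family's counts were at 11.5% and 14.3% in serum heroin and saline. They were at 20.0% and 15.5% in the NAc and 20.2% and 18.1% in the PFC. Without near-repeated names in the total the family's share was 18.2% and 17.02% in the NAc and 18.7% and 17.2% in the PFC. The cause was not tested.

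Names called for heroin over saline in serum were 2 without the filter, 4 in DESeq2 and 2 without serum saline replicates 10 to 12 (1 of them a member, miR-98), and 0 to 2 with single libraries left out. Replicates 10 to 12 were the saline libraries lowest in miR-98, so leaving them out favours that call. DESeq2 called 2 names for serum minus PFC and 1 for serum minus NAc, and leaving out single libraries gave 0 to 2 and 0 to 3. For the NAc over the PFC in saline rats DESeq2 called 58 names (1 member) and leaving out PFC saline replicates 8 and 12 gave 56 (1 member), with 25 (without NAc saline replicate 11) to 52 (without PFC saline replicate 12) for single libraries and 0 to 1 members. In heroin rats DESeq2 called 38, and single libraries gave 6 (without NAc heroin replicate 4) to 38 (without NAc heroin replicate 2), and 26 without PFC heroin replicate 5.

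With the replicate block the NAc over PFC count in heroin rats was 53 against 8, and 30 against 33 in saline rats. Of 36 same-numbered pairs, 18 correlated above 0.1 (-0.145 to 0.636). Among 6 candidates each, 16 of 36 libraries correlated best with their own number, where chance gives about 1 in 6. These values do not settle whether a number marks an animal. Since no label ties a number to an animal, the main fit did not use them as pairs. For the NAc and PFC in heroin rats alone, 5 of 6 pairs were at 0.117 to 0.636 and the pair of replicate 1 at -0.0945, and the block called 0 members there. Heroin and saline share no numbers.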
